A study of Mus musculus with 2 samples.

Results

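Cadherins and claudins, the adhesion proteins of adherens junctions and tight junctions, were followed in liver tumours with and without HLF (hepatic leukemia factor, a transcription factor of the PAR bZIP family). Members were all genes whose symbol is Cdh or Cldn followed by a number and that are named alone by a probe set of the array. There were 51 of them among 19938 genes named in this way, 23 cadherins and 28 claudins. Each gene was represented by its brightest probe set. Of the 51 genes, 48 had a single probe set and 3 had more, namely Cdh18, Cdh24 and Cldn10. A further 7 symbols of these families in RefSeq have no such probe set and were not analysed here.

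The HLF-deficient tumour sample was hepatocellular carcinoma tissue from mice lacking HLF and given DEN (diethylnitrosamine, a chemical liver carcinogen), and the wild-type tumour sample was such tissue from wild-type mice given the same agent; below each is called a tumour, although a sample may be a pool. Total RNA was measured on 1 whole-transcript Affymetrix array for each genotype, and strain, age, sex, dose, the Hlf allele and the number of animals or tumours behind a sample are not given in the sources used here. Values are RMA levels on a log2 scale, in which probe signals are background-corrected, equalised between arrays and summarised for each probe set. Differences are HLF-deficient minus wild-type on that scale. With 1 array in each group no test between genotypes was possible, the number of arrays limits the precision, and a difference of 1 or more, which is 2-fold, served as a rule of size.

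Hlf itself had a level of 3.79 in the HLF-deficient tumour and 5.13 in the wild-type tumour, a difference of -1.34. All 8 hepatocyte markers, among them Alb, lay far above the floor in both tumours, the lowest of them at 8.46 in the wild-type tumour. The floor, below which a level was not told from background, was 2.98, the 95th percentile of probe sets for olfactory, vomeronasal and taste receptors. Over 739 genes with a pair of probe sets above the floor, the disagreement within pairs gave an SD of 0.24 for the difference of any probe set; it covers no spread between mice. Of the 14575 genes that reached the floor in at least 1 tumour and were compared, 1.5% were higher by 2-fold and 0.364% lower, and 58.2% had a difference above 0, with a median of 0.07.

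Cadherins are calcium-dependent adhesion receptors whose outer repeats bind a partner on the next cell and whose tail, in the classical types, is linked through catenins to actin. Hepatocytes carry E-cadherin and N-cadherin, while VE-cadherin holds endothelial cells together. Claudins form the strands of tight junctions, some of them sealing the gap between cells and others forming pores for small ions and water. In the liver these strands separate the bile canaliculus from the blood side of the hepatocyte.

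Of the 51 members, 27 reached the floor in at least 1 tumour and were compared, 12 of 23 cadherins and 15 of 28 claudins, against 14575 of the 19938 genes overall. A single member passed 2-fold, the cadherin Cdh17, and 0 members were lower by 2-fold. Another cadherin, Cdh5, lay just under the rule and passed it (1.08) after centring of the arrays on their medians. No claudin reached even 1.5-fold in either direction, whereas 2 cadherins were higher by at least that much, with 6.37% of all genes compared higher by 1.5-fold and 3.11% lower. The remaining 25 members compared had differences inside 1.5-fold.

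**Figure D1:**
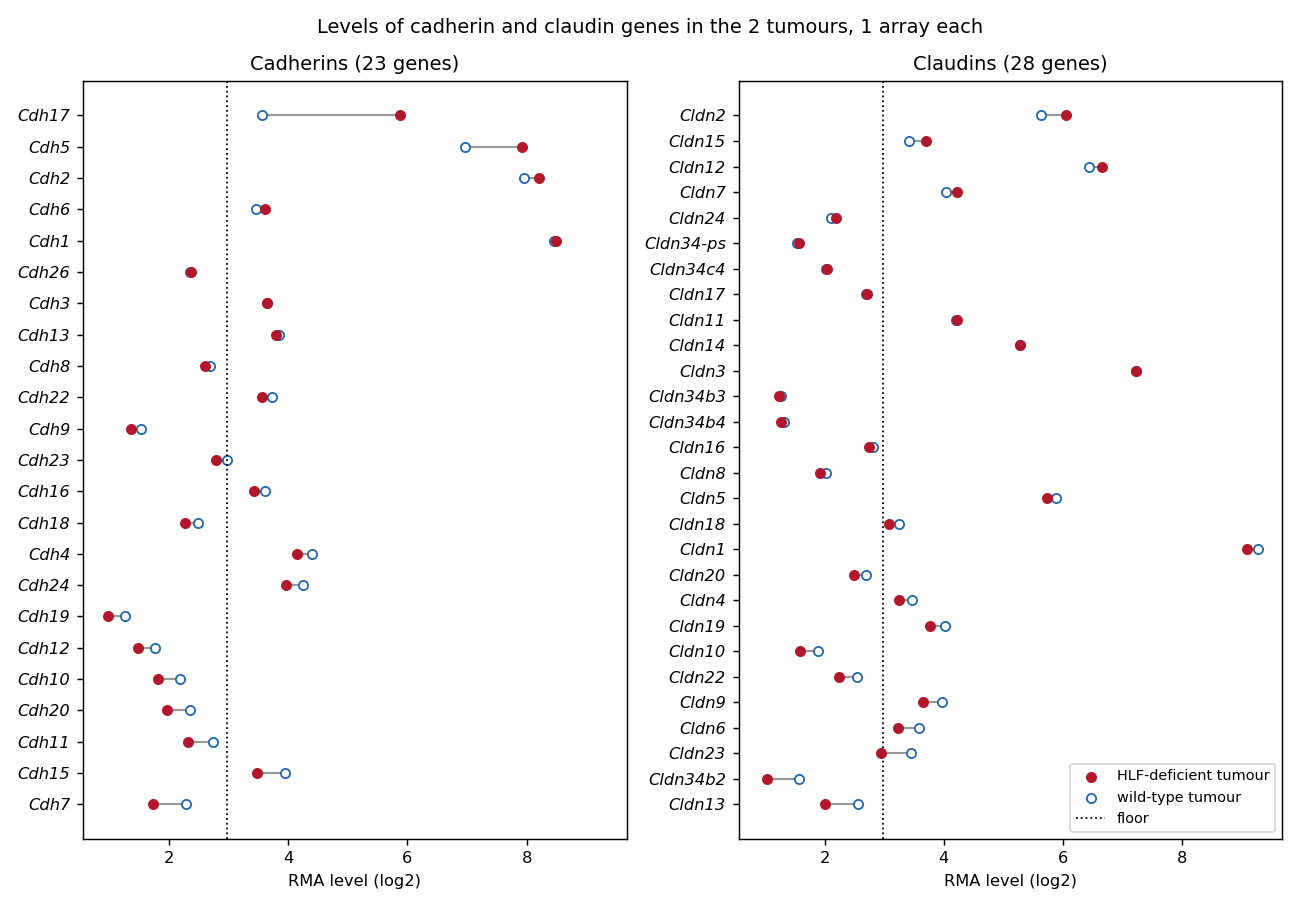
RMA level (log2) of 23 cadherin genes and 28 claudin genes in the HLF-deficient tumour (filled red) and the wild-type tumour (open blue), 1 array each, with the floor of 2.98 dotted; genes run from the highest to the lowest difference, and levels of different genes come from different probes and are not comparable. Cdh17 and Cdh5 show the wide gaps, and most other pairs of points nearly touch.

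Cdh17, or liver-intestine cadherin, is a cadherin with a short tail that does not bind catenins and with extra outer repeats. Its level was 5.88 in the HLF-deficient tumour and 3.56 in the wild-type tumour. Both values were above the floor, and the difference of 2.31, or 4.97-fold, is many times the disagreement between probe sets of a gene. It was the 10th largest measured increase among all genes compared, and it lay between 2.30 and 2.44 under the other scalings. The closest relative of Cdh17 on the array, the kidney cadherin Cdh16, had 3.43 in the HLF-deficient tumour and 3.61 in the wild-type tumour, a difference of -0.18.

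In the adult mouse, Cdh17 is best known from the intestine, where the homeobox factor Cdx2 is known to act on the gene in human intestinal cells. Intestinal markers were read beside it, and their part in the Cdh17 difference was not tested. All 6 of them were lower as deposited, with a median difference of -0.37 and 0 of 6 past 2-fold. Most were dimmer genes, at under 5 on at least 1 array, and 1 was under the floor in the HLF-deficient tumour. Of all such dimmer genes compared, 40.2% were positive, with a median of -0.09. The mean level of the intestinal markers, raised by a bright one, was 4.31 in the HLF-deficient tumour and 4.71 in the wild-type tumour. Cdx2 was at 3.13 in the HLF-deficient tumour and 4.01 in the wild-type tumour, and its relative Cdx1 at 4.20 and 4.79 in the same order. The median stayed negative after centring, quantile normalization and loess, at -0.25, -0.32 and -0.31, although 1 marker was above 0 after centring and 2 after loess. Bile duct markers were near level: 2 of 5 above the floor were higher, with a median of -0.10 that turned to 0.02, 0.01 and 0.01 under those scalings. Among them Tspan8 was highest at 0.24 and Krt19 lowest at -0.17, and Cftr was under the floor on both arrays.

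Cdh5, VE-cadherin, the adherens junction cadherin of endothelium, had a level of 7.92 in the HLF-deficient tumour and 6.97 in the wild-type tumour. The difference of 0.95, or 1.94-fold, was 0.80 after the loess trend was removed. Of 10 endothelial markers 8 had a positive difference. The share was 78.4% of all genes with levels of 5 or more on both arrays and 40.2% of dimmer genes, and the list holds both kinds. The median of the list was 0.42 as deposited, 0.29 after loess and 0.27 after quantile normalization, and 0 passed 2-fold and 3 passed 1.5-fold. As deposited the median was 0.19 for all genes at 5 or more and -0.09 for dimmer genes. The mean level of the list was 5.86 in the HLF-deficient tumour and 5.45 in the wild-type tumour, and all 10 markers were above the floor. Emcn and Egfl7 led it with 0.98 and 0.83, Emcn passing 2-fold at 1.10 with the arrays centred, and Tek and Stab2 were lowest with -0.13 and -0.06. More endothelial RNA per cell and more endothelial cells cannot be told apart in bulk tissue, and the part of these markers in the Cdh5 difference was not tested.

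Cldn5, the claudin of endothelial tight junctions, had no increase like that of Cdh5. It had 5.72 in the HLF-deficient tumour and 5.88 in the wild-type tumour, a difference of -0.16 that is smaller than the SD between probe sets. The difference was -0.04 with the arrays centred, -0.31 after loess and -0.34 after quantile normalization. The endothelial members of the families thus had unlike differences in this pair of arrays, 0.95 for Cdh5 and -0.16 for Cldn5.

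The hepatocyte cadherins were close to level. Cdh1, E-cadherin, which in mouse liver is found mainly on periportal hepatocytes, had 8.50 in the HLF-deficient tumour and 8.45 in the wild-type tumour; its difference of 0.05 turned to -0.04 after quantile normalization and to -0.08 after loess. Cdh2, N-cadherin, had 8.21 in the HLF-deficient tumour and 7.95 in the wild-type tumour, a difference of 0.26. The Cdh2 difference remained positive under each scaling, but at 0.12 after loess or quantile normalization it was smaller than the SD between probe sets. Neither gene reached 1.5-fold, as deposited or under another scaling.

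The other classical cadherins were lower or level. Cdh3, P-cadherin of basal epithelia, had 3.64 in the HLF-deficient tumour and 3.65 in the wild-type tumour, and its sign was positive under the other scalings. Cdh4, the retinal R-cadherin, had 4.14 and 4.41 in the same order. Cdh15, M-cadherin of muscle, was the lowest of the cadherins compared, at 3.48 in the HLF-deficient tumour against 3.95 in the wild-type tumour, a difference of -0.46.

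Among the type II cadherins, which share the catenin link but differ in their adhesive interface, 4 of 13 were above the floor. Besides Cdh5 these were Cdh6, the kidney K-cadherin, with 3.62 in the HLF-deficient tumour and 3.47 in the wild-type tumour, Cdh22, a brain cadherin, with 3.56 and 3.73, and Cdh24 with 3.97 and 4.25. Their differences were 0.15, -0.17 and -0.28. A dimmer probe set of Cdh24 gave -0.72, with 2.84, under the floor, in the HLF-deficient tumour and 3.56 in the wild-type tumour, so its size depends on the probe set while its direction does not.

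Cdh13, the GPI-anchored T-cadherin that binds adiponectin, had 3.79 in the HLF-deficient tumour and 3.84 in the wild-type tumour. Its difference of -0.05 turned positive, to 0.07, with each of the other scalings. The 11 cadherins under the floor in both tumours were Cdh7, Cdh8, Cdh9, Cdh10, Cdh11, Cdh12, Cdh18, Cdh19, Cdh20, Cdh23 and Cdh26. They include Cdh11, a cadherin of mesenchymal cells, and Cdh23, a component of the tip links of hair cells. Cdh23 lay nearest to the limit, at 2.79 in the HLF-deficient tumour and 2.97 in the wild-type tumour.

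**Figure D2:**
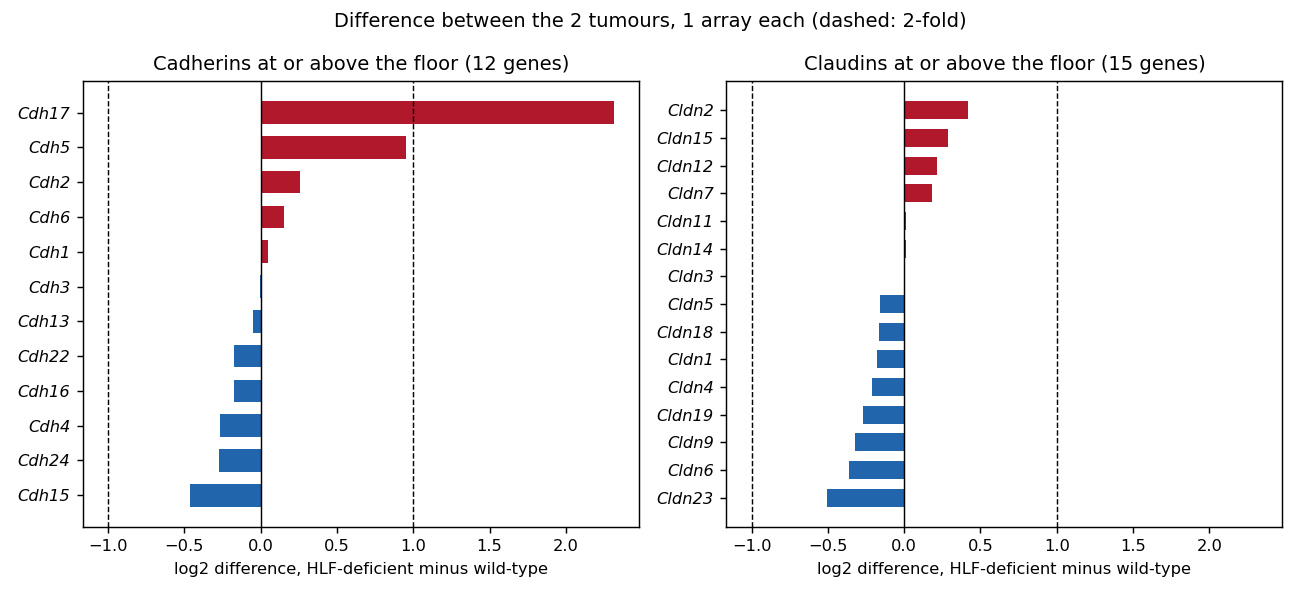
Difference in log2 level, HLF-deficient minus wild-type, for the 12 cadherins and 15 claudins at or above the floor, 1 array each, with red bars above 0, blue bars below 0 and 2-fold dashed. Cdh17 at 2.31 is the only bar past 2-fold, Cdh5 at 0.95 ends just under it, and the claudins run from -0.51 to 0.42.

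All 5 claudins assigned to hepatocytes were above the floor on both arrays. Cldn2, a pore-forming claudin that passes cations and water, is needed for normal bile flow in mice. As deposited it had the highest difference of its family, 0.42, with 6.05 in the HLF-deficient tumour and 5.63 in the wild-type tumour. The Cldn2 difference was 0.27 after loess and 0.23 after quantile normalization, and Cldn15 was then higher, at 0.43 under both. Cldn12, a claudin linked to calcium passage, had 6.65 in the HLF-deficient tumour and 6.44 in the wild-type tumour, a difference of 0.21. The latter was 0.04 after loess and 0.03 after quantile normalization. Cldn1, a sealing claudin of hepatocytes and of the skin barrier, was lower, with 9.08 in the HLF-deficient tumour and 9.26 in the wild-type tumour.

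The sealing claudin Cldn3 and the claudin Cldn14, known in humans from hereditary deafness, did not separate the tumours. Cldn3 had 7.21 in the HLF-deficient tumour and 7.22 in the wild-type tumour, and Cldn14 had 5.28 in both. Their differences of less than 0.01 in size were 0.12 and 0.13 with the arrays centred and -0.17 and -0.10 after quantile normalization. Within the hepatocyte group 3 of 5 differences were positive as deposited and the median was 0.01. Cldn2 was positive and Cldn1 negative as deposited and after quantile normalization, loess and centring. The Cldn1 difference of -0.18, between -0.29 and -0.06 elsewhere, was smaller as deposited than the SD between probe sets. The sealing Cldn3 changed sign, so these values do not set pore-forming against sealing claudins.

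Of the claudins of bile duct epithelium, Cldn7, a partner of the adhesion protein Epcam, had 4.22 in the HLF-deficient tumour and 4.04 in the wild-type tumour. Cldn4, a receptor for a clostridial enterotoxin, had 3.25 in the HLF-deficient tumour and 3.46 in the wild-type tumour. Their differences of 0.18 and -0.21 were smaller than the SD between probe sets. The third, Cldn10, was under the floor on both arrays with both of its probe sets.

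The embryonic claudins Cldn6 and Cldn9, which are active in fetal epithelia and lie next to each other on chromosome 17, had similar negative values. Cldn6 had 3.22 in the HLF-deficient tumour and 3.58 in the wild-type tumour, and Cldn9 had 3.64 and 3.97 in the same order. As deposited both differences, -0.36 and -0.33, exceeded the SD between probe sets and were inside 1.5-fold. Both stayed negative under the other scalings, but at -0.21 for each gene after loess and quantile normalization they were smaller than that SD.

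Of the 17 remaining claudins 5 were compared. Cldn15, a cation pore of the intestine, had 3.70 in the HLF-deficient tumour and 3.41 in the wild-type tumour, a difference of 0.29. Cldn11, the claudin of myelin and Sertoli cells, was level at 4.22 and 4.21. Cldn18, of stomach and lung, had 3.08 in the HLF-deficient tumour and 3.24 in the wild-type tumour, and its difference of -0.16 was 0.00 after quantile normalization.

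Cldn19, a claudin of kidney and peripheral nerve, had 3.76 in the HLF-deficient tumour and 4.03 in the wild-type tumour. Cldn23 was the only member that crossed the floor. It had 2.94, under the floor, in the HLF-deficient tumour and 3.45 in the wild-type tumour, so that it was at least 1.38-fold lower. The 13 claudins under the floor in both tumours were Cldn8, Cldn10, Cldn13, Cldn16, Cldn17, Cldn20, Cldn22, Cldn24, Cldn34-ps, Cldn34b2, Cldn34b3, Cldn34b4 and Cldn34c4. The Cldn34 genes resemble each other closely, so their probe sets may cross-read.

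Set side by side, the cadherins compared had a median difference of -0.03 and the claudins one of -0.16, with 5 of 12 and 6 of 15 values above 0. The range was -0.46 to 2.31 for cadherins and -0.51 to 0.42 for claudins. The upper end of the cadherins was that of 2 genes, Cdh17 and Cdh5, the only members higher by 1.5-fold. Of all genes compared 6.37% were higher by that much, so counts this small do not set the families apart. The gap between the medians was 0.13, and its spread was not estimated. With the arrays centred the cadherin median was 0.09 and the claudin median -0.04, and with the floor at the 99th percentile the gap turned to -0.01. Genes are not replicates, and no test was made of the families.

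The sign of a member's difference went with its level, as it did over all genes. Of 9 members at 5 or more on both arrays, 6 were positive with a median of 0.05, while 78.4% of 6873 such genes overall were positive with a median of 0.19. Of the 18 dimmer members compared, 5 were positive with a median of -0.18, beside 40.2% of 7702 such genes with a median of -0.09. The level of 5 was chosen after the values were seen.

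**Figure D3:**
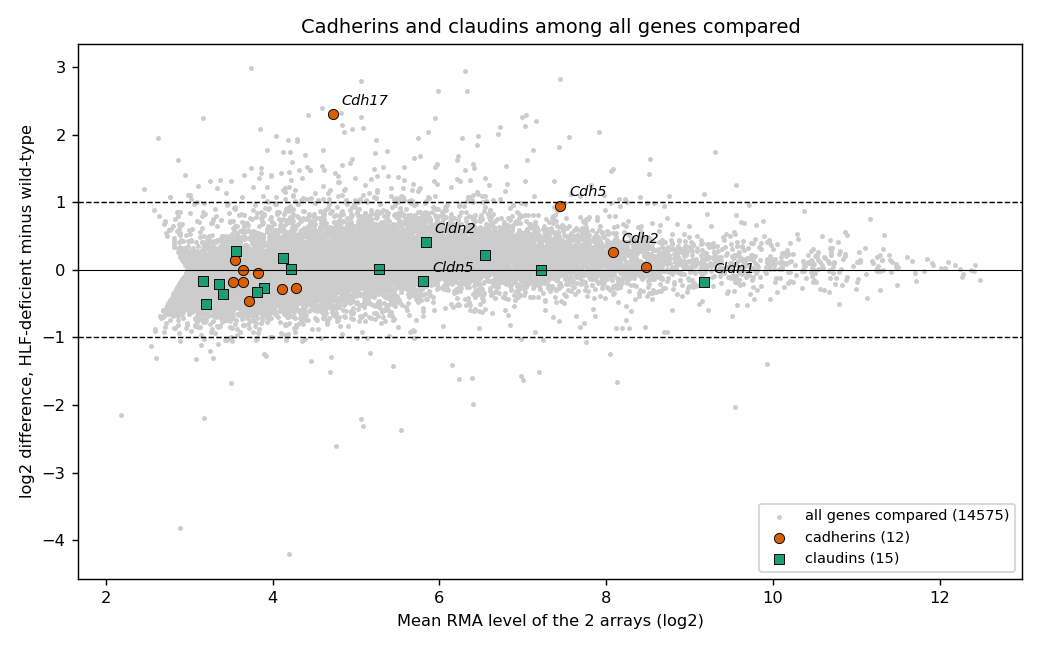
Difference in log2 level, HLF-deficient minus wild-type, against the mean level of both arrays for 14575 genes at or above the floor (grey), the 12 cadherins (orange circles) and the 15 claudins (green squares), with 2-fold dashed. Cdh17 lies well outside the grey band, Cdh5 lies at its upper edge, and the other members lie within it.

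RefSeq promoter windows of assembly GRCm38.p6 were matched for 35 of the 51 members, and the 250 bases before each start were searched on both strands. Cdh17, Cdh5, Cdh1 and Cdh2 were among the members with no window, so their promoters were not searched. Of the cadherins above the floor only 4 had a window. The letters TTACGTAA, a palindrome that PAR bZIP factors such as HLF bind, were in windows of 0 of the 35 genes and of 0.118% of all 27025 genes with a window. The variant TTATGTAA was in 1, Cldn10, and in 0.977% of all genes. The AP-1 letters TGANTCA were in 4, namely Cldn4, Cldn15, Cldn34b2 and Cldn34b4, and in 7.82% of all genes, and the E-box CAGGTG, bound by factors of the Snail type, was in 5 and in 19.4%. The TATA letters TATAAA were in Cldn2 alone and in 14.3% of all genes. CATCTG, an E-box bound by Twist, was in 3 members and 16.3% of all genes. A match describes letters and is not a site in use.

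These 4 windows belong to the gene with the HLF-type letters, the members above the floor with AP-1 letters, and the claudin with the highest difference as deposited. The windows of Cldn34b2 and Cldn34b4 are not shown. Capitals mark the matches, and each window reads 5′ to 3′ on the strand of the gene.
Cldn10, chr14:118787621-118787870, plus strand, with TTATGTAA at -154: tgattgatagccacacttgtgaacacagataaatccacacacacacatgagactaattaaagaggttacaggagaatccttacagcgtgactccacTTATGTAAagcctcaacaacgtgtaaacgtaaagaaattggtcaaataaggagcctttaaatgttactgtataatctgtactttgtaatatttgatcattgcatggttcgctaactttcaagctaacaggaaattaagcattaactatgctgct
Cldn4, chr5:134946935-134947184, minus strand, with AP-1 letters at -240 and -158 and the E-box read on the other strand at -14: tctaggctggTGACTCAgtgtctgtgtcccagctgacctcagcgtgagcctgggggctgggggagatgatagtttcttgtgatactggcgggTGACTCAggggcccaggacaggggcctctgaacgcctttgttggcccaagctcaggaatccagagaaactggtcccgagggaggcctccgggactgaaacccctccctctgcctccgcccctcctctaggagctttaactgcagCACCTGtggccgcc
Cldn15, chr5:136967619-136967868, plus strand, with AP-1 letters at -214: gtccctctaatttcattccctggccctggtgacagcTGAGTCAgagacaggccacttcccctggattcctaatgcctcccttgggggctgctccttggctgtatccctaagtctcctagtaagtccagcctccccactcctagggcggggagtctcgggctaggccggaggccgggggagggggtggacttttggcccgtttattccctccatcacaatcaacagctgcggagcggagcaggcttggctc
Cldn2, chrX:139800558-139800807, plus strand, with TATAAA at -35: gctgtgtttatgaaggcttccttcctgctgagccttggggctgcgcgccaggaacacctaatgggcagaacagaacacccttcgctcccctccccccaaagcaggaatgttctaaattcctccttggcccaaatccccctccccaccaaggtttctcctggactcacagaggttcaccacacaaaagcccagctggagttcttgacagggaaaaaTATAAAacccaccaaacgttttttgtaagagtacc
The gene with the HLF-type letters, Cldn10, was under the floor in both tumours. Of the 4 genes with AP-1 letters, Cldn15 had a difference of 0.29 and Cldn4 one of -0.21, and Cldn34b2 and Cldn34b4 were under the floor in both tumours.

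The windows of members above the floor held more CG pairs than those of members under it. The median was 7 over 17 members above the floor and 4 over 18 members under it. Over all genes with a window the medians were 14 for 11520 genes above the floor and 3 for 4094 under it. Where a gene had several windows, the one listed earliest was counted. Cdh26, under the floor on both arrays, had no CG pair at all, and Cdh22, above the floor, had 30.

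Partners inside the cell were read from lists of junction genes. Of 12 catenins and cadherin partners 10 were compared, 8 were higher and 0 passed 2-fold, with a median of 0.29. The share was 78.4% of all genes at 5 or more on both arrays and 40.2% of dimmer genes, and the list holds both kinds. After quantile normalization or loess 7 were higher. Jup, plakoglobin, which serves both adherens junctions and desmosomes, had 6.97 in the HLF-deficient tumour and 6.30 in the wild-type tumour, a difference of 0.67. Vcl, vinculin, which couples junctions to actin, had 7.02 in the HLF-deficient tumour and 6.42 in the wild-type tumour, a difference of 0.60. The lowest were Ctnnd2, a neural catenin, at -0.31 and Arvcf at -0.00, both of them dimmer genes. The median was 0.17 after quantile normalization or loess.

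Of 17 tight junction partners compared 13 were higher as deposited, 11 after quantile normalization and 10 after loess, with a median of 0.19 and 0 past 2-fold. Over all genes at 5 or more on both arrays 78.4% were higher, and the median was also 0.19. Some of these partners were dimmer, and of all dimmer genes 40.2% were higher. Cldnd1, a claudin-domain protein outside the claudins proper, had 0.59, and Tjp1, the scaffold ZO-1 that claudin tails bind, had 0.55, with 7.34 in the HLF-deficient tumour and 6.79 in the wild-type tumour. Ildr1, a tricellular junction protein, was lowest at -0.53 and Crb3 followed at -0.15. The median was 0.03 after quantile normalization or loess. The claudins themselves had a median of -0.16 as deposited, -0.09 after loess and -0.10 after quantile normalization, and most of them were dimmer genes, whose median over all genes was -0.09.

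Other junction types held a single gene past 2-fold. Gja1, the gap junction protein connexin 43, had 5.08 in the HLF-deficient tumour and 3.34 in the wild-type tumour, a difference of 1.75, while Gjb2, a connexin of hepatocytes, had 0.20 and Gja4 and Gjb1 had -0.10 and -0.01. The 5 gap junction genes compared had a median of 0.11. The 8 desmosome genes compared had a median of 0.14 as deposited, 0.03 after loess and 0.01 after quantile normalization, with the plaque protein Dsp at 0.78 and Dsc2 at 0.37 and with Evpl and Pkp3 at -0.66 and -0.53, and 0 passed 2-fold.

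The regulators of epithelial-mesenchymal transition, several of which repress Cdh1, gave 3 of 9 positive values and a median of -0.20. Most of them were dimmer genes, of which 40.2% were positive over all genes, with a median of -0.09. Zeb2 and Zeb1, repressors of E-cadherin, were at 0.64 and 0.33, and Twist1 and Grhl2 were lowest at -0.44 and -0.39, Grhl2 under the floor in the HLF-deficient tumour. None of the 9 passed 2-fold, and the median remained negative under each scaling. Of 50 further genes of the cadherin superfamily on the array 21 were compared, with a median of -0.00 that was positive under the other scalings. Cdhr2, a cadherin of the brush border, had 3.59 in the HLF-deficient tumour and 2.73, under the floor, in the wild-type tumour, which makes it at least 1.53-fold higher, and the giant cadherin Fat1 had 0.78, while Fat3 was at -0.85 and Pcdhb4, under the floor in the HLF-deficient tumour, at -0.36. After loess the measured difference of Cdhr2 was past 2-fold, at 1.02.

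Markers of the other cells of the tissue were also read. Stellate and fibroblast markers had a median of 0.23 with 9 of 10 positive, led by Pdgfrb and Lum at 0.73 and 0.65, with Lrat the only negative value at -0.13. Macrophage markers had a median of 0.22 with 4 of 6 positive, where Cd68 passed 2-fold at 1.53, Adgre1 had 0.57, and Clec4f and Vsig4 had -0.37 and -0.36. Hepatocyte markers had a median of 0.12, with Tat and F9 highest at 0.32 and 0.31 and Alb and Apoa1 lowest at -0.15 and -0.02. Mesothelial markers had a median of -0.15, with Wt1 and Lrrn4 lowest at -0.45 and -0.18, and the 3 neural and glial markers compared had one of -0.21, with Snap25 and Sox10 at -0.23 and -0.21. These medians are as deposited and shrank after loess, to 0.11 for stellate and fibroblast markers (8 of 10 positive), 0.13 for macrophages, 0.01 for hepatocytes, -0.03 for mesothelium and -0.07 for neural markers. After quantile normalization they were 0.08 (7 of 10 positive), 0.10, 0.03, -0.03 and -0.08 in that order. Positive values were the rule among bright genes as deposited, with 78.4% of all genes at 5 or more, but not among dimmer genes, with 40.2%.

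**Figure D4:**
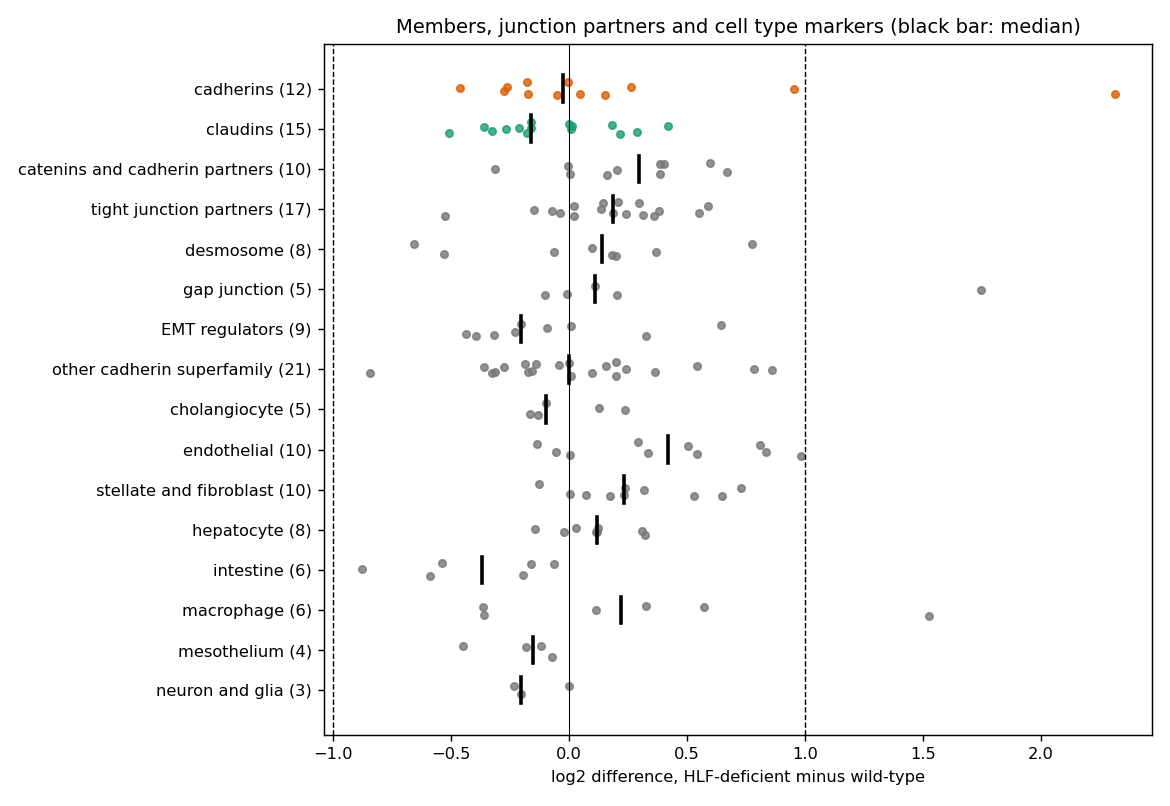
Difference in log2 level, HLF-deficient minus wild-type, of each gene at or above the floor (points, scattered vertically for legibility) in the cadherins, the claudins, 6 lists of junction partners and related genes and 8 lists of cell type markers, with the median as a black bar, the number of genes in brackets and 2-fold dashed. The endothelial bar at 0.42 and the catenin bar at 0.29 lie to the right of the cadherin bar at -0.03, and the intestinal bar at -0.37 lies farthest left.

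The genes around Cdh17 and Cdh5 in the RefSeq order were examined after the member values were seen. Of the 20 compared genes nearest to Cdh17 on chromosome 4, 10 on each side, 14 were higher, and the median was 0.39. Over all genes compared the share above 0 was 58.2%. It was 78.4% at 5 or more on both arrays and 40.2% among dimmer genes, and the stretch holds both kinds. By 2-fold 1 was higher, Trp53inp1, a p53-inducible gene, at 1.05, and by 1.5-fold 6 were higher and 0 lower (6.37% and 3.11% of all genes compared). Trp53inp1 was under 2-fold after loess and quantile normalization, at 0.91 and 0.92. Rbm12b2, under the floor in the wild-type tumour, had a measured difference of 0.98 as deposited and was past 2-fold under the other scalings, at 1.13 after loess. Over the 946 genes compared on chromosome 4 the median was 0.02 and 4.33% were higher by 1.5-fold. Gem, the nearest compared gene on one side, had 4.52 in the HLF-deficient tumour and 3.79 in the wild-type tumour, and Pdp1, the nearest on the other side, had 5.30 and 5.28. After loess 5 of the 20 were higher by 1.5-fold with a median of 0.31, after quantile normalization 4 were, with 0.29, and with the arrays centred 8 were.

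Around Cdh5 on chromosome 8 the 20 nearest compared genes had a median of -0.03, and 0 of them reached 1.5-fold in either direction. The highest was Cmtm3 at 0.46 and the lowest Ccdc113 at -0.52. The kidney cadherin Cdh16 lies within this stretch, and Cdh11, which precedes Cdh5 in the order of coding genes, was under the floor on both arrays. Cdh3 and Cdh1, which lie side by side elsewhere on the same chromosome, were both within 0.05 of level as deposited.

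**Figure D5:**
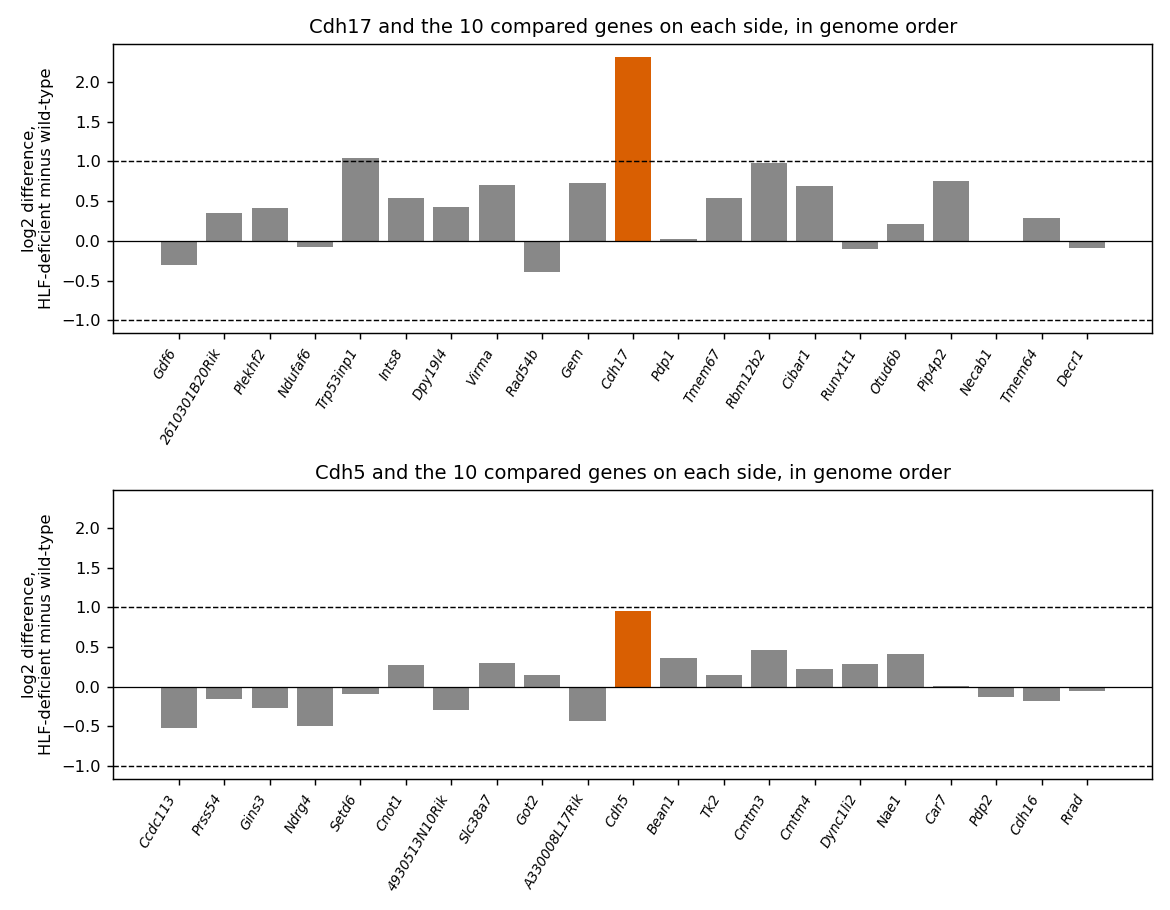
Difference in log2 level, HLF-deficient minus wild-type, for Cdh17 (upper panel) and Cdh5 (lower panel), in orange, and the 10 compared genes on each side in genome order, in grey, with 2-fold dashed. As deposited, 14 of 20 neighbours of Cdh17 are above 0, beside 58.2% of all genes compared. Trp53inp1 is at 1.05, which other scalings put at 0.91 to 1.17, whereas around Cdh5 the neighbours lie between -0.52 and 0.46.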

How the data were processed

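Total RNA of 2 tumour tissue samples was measured on Affymetrix arrays, and the deposited table holds log2 levels made by the authors with RMA in Affymetrix Expression Console, per the submitters' processing notes, with no version given. The log2 scale was read from the values, which run from 0.37 to 12.7 in the HLF-deficient and from 0.25 to 12.7 in the wild-type column. RMA compresses differences near background. Of 35556 probe sets, 21789 name 1 gene in the platform annotation. All 51 member symbols were unchanged in RefSeq (GRCm38.p6). The median level was 3.61 in the HLF-deficient and 3.73 in the wild-type column.

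The floor used 1243 chemoreceptor probe sets. Named genes are Hlf, all members above the floor, and up to 2 per direction from each of 6 partner and 8 marker lists; the neighbours of Cdh17 and Cdh5 were named after their values were seen. Members and lists were chosen with earlier results of these data known. Differences were computed with pandas 2.3.3 and loess with statsmodels 0.14.6 (span 0.4), and the computation was checked on simulated data. Known differences were added there to genes well above the floor, with noise smaller than the SD between probe sets. That check therefore does not cover the dimmer members. Alternatives were centring, quantile normalization, loess, the mean of probe sets, other floors and rules of 1.5-fold and 4-fold.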

Additional observations from a re-analysis of the deposited data

How the results depend on the processing

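Under 10 alternative settings Cdh17 stayed past 2-fold in each, and past 4-fold under the 4-fold rule. The number of members higher by 2-fold was 1 as deposited and 2 with the arrays centred, where Cdh5 joined, and 2 members passed the 1.5-fold rule. The number of members lower by 2-fold was 0 in each setting, also under 1.5-fold. With no floor all 23 cadherins and 28 claudins entered. Family medians moved by less than 0.24 but not with a stable sign: -0.18 to 0.09 for cadherins and -0.16 to 0.00 for claudins, and their gap ran from -0.09 to 0.13. Of the 27 named members 6 changed sign under another scaling (Cdh1, Cdh3, Cdh13, Cldn3, Cldn14 and Cldn18), and the floor at the 99th percentile left 9 out. No paired analysis was possible because there is 1 array for each genotype. Levels near the floor limit what can be said of the dimmer members.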

Other observations

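Probe sets that name a member together with other genes were left out of the comparison, and 7 of them were on the array. Of these, 3 name Cdh11 together with the loci 6820431F20Rik and 2610005L07Rik, and they had 8.04, 6.59 and 7.90 in the HLF-deficient tumour against 7.69, 6.45 and 7.67 in the wild-type tumour. The probe set that names Cdh11 alone had 2.33 in the HLF-deficient tumour and 2.75 in the wild-type tumour, under the floor in both. The locus that the bright probe sets read was not determined. The other 4 name Cldn10 or Cldn34 genes and were under the floor in both tumours.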
